A study of Mus musculus with 8 samples.

Results

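Hnrnpu, the gene of the nuclear RNA-binding protein hnRNP U, was targeted with short hairpin RNAs in differentiating mouse erythroid cells, and 2 hairpin libraries were compared with the library of their own control hairpin. The 3 libraries, labelled hnRNPU_sh1, hnRNPU_sh2 and hnRNPU_shCTL, were taken by their labels from the 8 libraries of the study, and all genes in them entered. Every library came from C57BL/6 fetal livers at stage E14.5, from erythroid progenitors that were isolated with magnetic beads, transduced and grown with erythropoietin for 24 h. The other 5 libraries targeted Bloodlinc, a long noncoding RNA, with hairpins (Bloodlinc_sh1 and Bloodlinc_sh2, with Bloodlinc_shCTL) or expressed it from a vector (Bloodlinc_vector, with Empty_vector). Their control hairpin and empty vector libraries gave further control levels here. Whether the hairpins went into separate cultures or embryos is not stated in the labels, and the p-values then measure only how far these samples lie apart, which may be technical. Both hairpin libraries were compared with the same single control library, and their likeness to each other is therefore not given as a result.

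hnRNP U, also called scaffold attachment factor A, binds RNA and DNA and is among the most abundant proteins of the nucleus. It is known for roles in splicing, in the folding of chromatin and in holding Xist RNA on the inactive X chromosome. Erythroid cells at the stage studied go through their last divisions while they fill with hemoglobin and condense the nucleus. The comparison asked which transcripts differ in such cells when Hnrnpu is targeted.

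The hairpin libraries stood apart from the other 6 before any gene was compared. The control library held 33820556 counts in genes, and hairpins 1 and 2 held 2931627 and 2612916, since 89.7% and 86.6% of their uniquely placed counts lay outside genes, against 21.8% in the control. Within genes, 2 gene IDs that the annotation does not hold took 32.6% and 22.6% of the counts, against 0.0166% in the control, and protein-coding genes outside the mitochondrial genome took 41.8% and 52.99% against 75.5%. Levels are therefore given as CPM, here counts scaled to the protein-coding total of each library, on totals of 26011458, 1254918 and 1417659. A single count was worth 0.0384 CPM in the control and 0.797 and 0.705 CPM in the hairpin libraries, and a gene with no count could still lie at up to 0.115, 2.39 and 2.12 CPM, the worth of 3 counts. These floors cover counting error only. At least 1 count was found for 14823 protein-coding genes in the control and for 11765 and 12109 with the hairpins. Whether depth or the counts outside genes take part in the differences below was not tested.

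The erythroid identity of the cells was visible in all 3 libraries. The 10 erythroid markers summed to 50016 CPM in the control and to 62902 and 50513 CPM with hairpins 1 and 2, and none of them was at 0. Of these 10, 4 had positive and 6 negative log2 fold changes (median −0.44), and 0 passed the test described below. Other blood cell types were also present at low levels. Granulocyte markers summed to 2569.8, 13635 and 6685 CPM and macrophage markers to 349, 2099.7 and 855 CPM in the same order. In such bulk samples, fewer cells of a type and less RNA per cell cannot be told apart.

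Hnrnpu itself (chromosome 1 from 178321108 to 178337797, minus strand, GRCm38) was lower with both hairpins than with the control hairpin, but the difference did not pass the test. It stood at 862 CPM in the control, 438 CPM with hairpin 1 and 667 CPM with hairpin 2. The fit gave a log2 fold change of −0.75 with an SE of 0.58, and its adjusted p in edgeR's quasi-likelihood test, with Benjamini-Hochberg adjustment, was 0.73. The other controls lay far apart, at 328 CPM in Bloodlinc_shCTL and 1334 CPM in Empty_vector, and both hairpin libraries lay between them. Against Bloodlinc_shCTL the sign turned (0.27). The related genes Hnrnpul1 and Hnrnpul2 had log2 fold changes of −0.40 and −0.32 and did not pass either (adjusted p = 0.867 and 0.889). Hnrnpul1 turned to 0.15 against Empty_vector and Hnrnpul2 to 0.04 against Bloodlinc_shCTL.

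Across 15355 genes tested, 135 passed an adjusted p of 0.05 in edgeR's test, which is 0.879% of them, and 1518 had an unadjusted p below 0.05. Of the 135, 89 rose (0.58% of all tested) and 46 fell (0.3%). Genes induced by interferon made up 40 of those that rose, and replication-dependent histone genes 14 of those that fell. Both hairpin libraries lay on the called side of the control for 84 of the 89 and for all 46. Of all genes tested, 30.8% lay above the shared control in both hairpin libraries and 34.7% below it. They were at least 2-fold above it for 74 of the 89 and at least 2-fold below it for 45 of the 46. In 47 of the 89 genes the 2 hairpin libraries lay more than 4-fold apart, whichever was higher, and so they did for 6 of the 46.

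**Figure D1:**
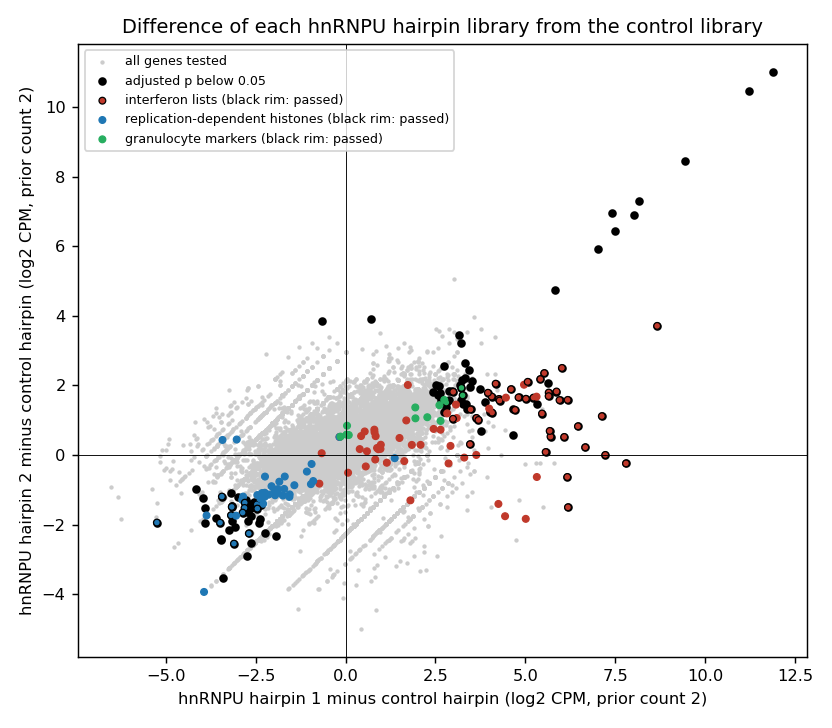
Log2 difference of hairpin 1 (x axis) and hairpin 2 (y axis) from the shared control library for each gene tested, in log2 CPM over protein-coding genes with a prior count of 2; black points passed, and coloured points belong to 3 gene lists, with a black rim where they passed. Interferon genes spread along the x axis, while 46 of the 50 histone genes lie below 0 on both axes, as 34.7% of all genes tested do.

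The levels in the other controls separated these calls. Of the 89 genes that rose, 69 stood in both hairpin libraries above all 6 other libraries of the study, where 12.6% of all genes tested did so. Of the 46 that fell, 20 stood below all 6, against 13.9% of all genes tested. These shares of all genes are not a like measure, since the calls were made against the hnRNPU control, which is among the 6. Of the 4727 genes tested that lay above that control in both hairpin libraries, 1940 stood above all 6. Of the 5326 below it in both, 2127 stood below all 6, a share close to that of the 46. The direction also held unevenly. Taken against Empty_vector as the control, 1 of the 89 had the opposite sign, and so did 11 of the 46. Against Bloodlinc_shCTL these numbers were 0 and 3. Restricting the fit to protein-coding genes gave 123 calls (0.93%), with 88 higher and 35 lower.

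The number of calls rested strongly on the method and on hairpin 1. limma-voom called 9 genes, and so did edgeR with every library thinned to the depth of the shallowest. Leaving out hairpin 1 left 7 genes (0.0441% of those tested) and leaving out hairpin 2 left 59 (0.381%). Gene IDs that the annotation does not hold were among the steadiest calls, and 3 of them passed in all 17 alternative settings that tested them. Lars2 and Map7d2 were the only protein-coding genes among the 9 called with thinned libraries. They were also the 2 genes that passed in all 18 alternative settings, and they are described next.

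Map7d2, which encodes a protein that binds microtubules, and Lars2, which encodes the mitochondrial leucyl-tRNA synthetase, rose with both hairpins. Map7d2 (chromosome X from 159414572 to 159498757, plus strand, GRCm38) stood at 0.308 CPM in the control, 147 CPM with hairpin 1 and 81.1 CPM with hairpin 2, from 8, 185 and 115 counts (log2 fold change 8.49 with an SE of 0.97, adjusted p = 1.75e-13). It was at 0.0579 CPM in Bloodlinc_shCTL and 0.575 CPM in Empty_vector, so that only the 2 hairpin libraries held it above 1 CPM. Lars2 (chromosome 9 from 123366927 to 123462666, plus strand) stood at 12.1 CPM in the control, 2223 CPM with hairpin 1 and 1071 CPM with hairpin 2 (log2 fold change 7.08 with an SE of 0.86, adjusted p = 7.27e-12). Its level was 25.1 CPM in Bloodlinc_shCTL and 87.9 CPM in Empty_vector. The other 16 members of the mitochondrial aminoacyl-tRNA synthetase list did not pass, and the list's median was −0.79. The counts outside genes and those on the 2 unannotated gene IDs were high in the same 2 libraries, and their part in these values was not tested.

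The interferon response was the largest group to rise. Type I interferon binds a receptor on the cell surface and switches on a battery of antiviral genes by way of the interferon-stimulated response element, a short DNA motif in their promoters. Of 56 interferon-stimulated genes tested, 34 rose and 0 fell, with a median log2 fold change of 4.16 against −0.09 over all genes tested. A further 6 of the 62 in the list were too low to be tested, and some that were tested passed the low-count filter only through the hairpin 1 library, so the count and the median are descriptions. The median difference from the control was 4.53 with hairpin 1 and 0.92 with hairpin 2, where all genes tested had medians of −0.34 and 0.14. The promoters of 4 genes that rose are shown because 3 of them carry the motif and belong to this group, while the fourth, Tmem140, carries it and was outside the lists. Isg15, Rsad2 and Tmem140 were chosen for display after their values were seen.

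The sequences are the 160 bases before the RefSeq start on GRCm38.p6, read in the direction of the gene, at chr4:156200819-156200978 (minus strand, Isg15), chr19:34640729-34640888 (plus strand, Ifit1), chr12:26456453-26456612 (minus strand, Rsad2) and chr6:34862986-34863145 (plus strand, Tmem140). Capitals mark matches, on either strand, to 2 copies of GAAA in the same direction with any 2 bases between them, and in Isg15 3 overlapping matches form 1 run.
Isg15: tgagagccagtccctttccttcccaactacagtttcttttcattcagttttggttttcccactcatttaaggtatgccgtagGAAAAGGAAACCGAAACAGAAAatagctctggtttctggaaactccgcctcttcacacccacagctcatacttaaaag
Ifit1: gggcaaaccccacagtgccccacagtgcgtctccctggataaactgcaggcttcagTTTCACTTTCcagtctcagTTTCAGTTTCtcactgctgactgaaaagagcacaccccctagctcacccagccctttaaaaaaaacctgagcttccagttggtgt
Rsad2: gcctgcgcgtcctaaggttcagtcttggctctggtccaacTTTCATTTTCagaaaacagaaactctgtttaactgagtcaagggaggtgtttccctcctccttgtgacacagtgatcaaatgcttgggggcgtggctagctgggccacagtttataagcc
Tmem140: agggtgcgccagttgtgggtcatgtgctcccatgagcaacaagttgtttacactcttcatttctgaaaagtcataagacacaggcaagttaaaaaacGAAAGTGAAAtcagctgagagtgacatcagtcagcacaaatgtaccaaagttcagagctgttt

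Over the 300 bases around the start that the RefSeq table gives, this GAAA repeat was found on either strand in 406 of 10524 genes tested that had an entry (3.86%) and in 1131 of all 32851 promoters (3.44%). Among the genes that rose, 22 of 59 with an entry held it (37.3%). They comprised 18 of 29 in the interferon lists (62.1%) and 4 of 30 outside them (13.3%), which were Tmem140, Trim21, Hbb-y and the pseudogene Gm1966. None of the 21 genes that fell and had an entry held it, and the histone genes that fell had no entry. A match is a run of letters in this window and not a measured binding site.

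Some of the sensors and regulators of the pathway rose as well. Irf7, the interferon regulatory factor that amplifies the response, stood at 2.46 CPM in the control, 165 CPM with hairpin 1 and 7.76 CPM with hairpin 2 (log2 fold change 5.22 with an SE of 0.85, adjusted p = 2.26e-06). The RNA sensor genes Ddx58 and Dhx58, which encode RIG-I and LGP2, had log2 fold changes of 4.83 and 5.01 (adjusted p = 4.46e-06 and 0.00914). Ddx58 went from 3.42 CPM to 167 and 18.3 CPM. In all, 6 of 26 genes of interferon sensing and signalling rose and 0 fell (median 0.97).

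Levels of these genes lay closer to the control with hairpin 2 than with hairpin 1. Rsad2, the gene of the antiviral enzyme viperin, was the most abundant at 93.7 CPM in the control, 2279 CPM with hairpin 1 and 348 CPM with hairpin 2 (log2 fold change 3.88 with an SE of 0.73, adjusted p = 0.000126). Ifit1, which encodes a protein that binds viral RNA, was at 1.42 CPM in the control, 663 CPM with hairpin 1 and 21.2 CPM with hairpin 2 (log2 fold change 8.01 with an SE of 0.88, adjusted p = 2.97e-14). Isg15, a ubiquitin-like protein gene, was at 4.73 CPM in the control, 253 CPM with hairpin 1 and 7.76 CPM with hairpin 2 (log2 fold change 4.88 with an SE of 0.78, adjusted p = 1.27e-06), and so hairpin 2 lay within 2-fold of the control there. Ddx60, Igtp, Slfn4, Slfn5, Slfn8, Ifi204 and Usp18 passed with log2 fold changes from 5.31 to 6.69, and each had between 1 and 5 counts with hairpin 2, too few to show a rise there. Ifit3, Oas2, Mx1 and Rtp4 passed with 0 counts in that library. Ifit3 also had 0 in the control. Mx1 had 10 counts in the control and 54 with hairpin 1, and Rtp4 had 3 and 29, both named after their values were seen, so that their calls rest on hairpin 1. With hairpin 1 left out, 0 of 49 interferon-stimulated genes passed, and 0 passed with limma-voom or with thinned libraries. Without hairpin 2, 26 of 56 passed.

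Class I antigen presentation, which interferon also raises, had 0 of 10 genes of its list passing, although all 10 had positive log2 fold changes (median 1.27). Outside the list, the class I gene H2-T24, named after its value was seen, rose. It stood at 9.57 CPM in the control, 131 CPM with hairpin 1 and 35.98 CPM with hairpin 2 (log2 fold change 3.15 with an SE of 0.71, adjusted p = 0.00314). Both hairpin libraries lay above all 6 others for it, and it passed in 14 of 18 alternative settings. Class I genes have close paralogs, so its value is uncertain. B2m, the gene of the light chain of class I molecules, stood at 71.5 CPM in the control, 424 CPM with hairpin 1 and 138 CPM with hairpin 2 (log2 fold change 2.0 with an SE of 0.61, adjusted p = 0.0979). Tap1, the peptide transporter gene, went from 5.23 to 49.4 CPM with hairpin 1 and 11.99 CPM with hairpin 2 (log2 fold change 2.58, adjusted p = 0.138). H2-D1 had a log2 fold change of 1.33 (adjusted p = 0.406). Targets of NF-kB, the other main arm of innate signalling, had a median of 1.12 with 0 of 13 passing, and the members with the largest changes at 5 CPM or more in the control included Relb (15.4 CPM in the control, 53.4 CPM with hairpin 1 and 50.8 CPM with hairpin 2, adjusted p = 0.314).

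**Figure D2:**
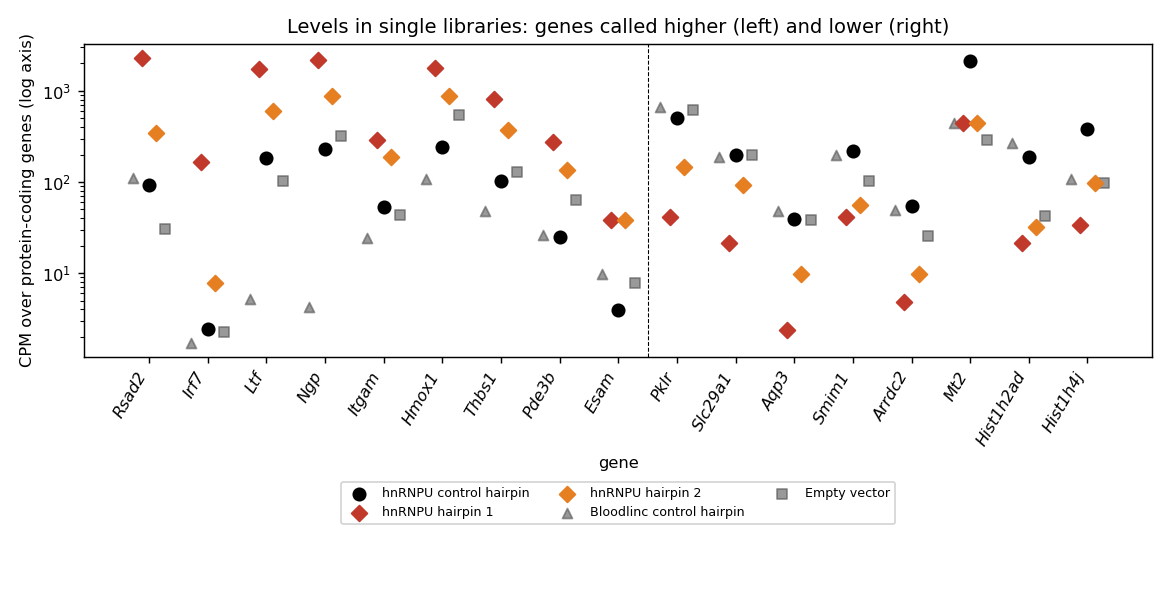
Level of 17 genes that passed, in CPM over protein-coding genes on a log axis, in the hnRNPU control and hairpin libraries and in the 2 other control libraries; genes that rose are left of the dashed line and genes that fell right of it. Each point is 1 library, and both hairpin points lie above all 3 control points for the genes on the left, while for Mt2 and Hist1h4j on the right the hnRNPU control stands above every other point.

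Genes outside the interferon lists also passed. Pde3b, which encodes a phosphodiesterase that breaks down cyclic nucleotides, stood at 25.1 CPM in the control, 276 CPM with hairpin 1 and 136 CPM with hairpin 2 (log2 fold change 3.03 with an SE of 0.63, adjusted p = 0.000922). Esam, an adhesion molecule gene of endothelial cells, platelets and blood stem cells, stood at 3.92 CPM in the control, 38.3 CPM with hairpin 1 and 38.1 CPM with hairpin 2 (log2 fold change 3.21 with an SE of 0.80, adjusted p = 0.0155). Nav2, a neuron navigator gene, stood at 2.58 CPM in the control, 24.7 CPM with hairpin 1 and 30.3 CPM with hairpin 2 (log2 fold change 3.32 with an SE of 0.92, adjusted p = 0.0426). Both hairpin libraries lay above the other 6 libraries for all 3 genes. They passed in 14, 12 and 11 of 18 alternative settings, although the 7 genes called with hairpin 2 alone did not include them. Further genes chosen for the size of the smaller hairpin difference did not pass. They were Abca8b (3.09, adjusted p = 0.0502), Cd300lf (2.77, 0.0883), Ly75 (2.63, 0.217), Fgl2 (2.16, 0.187) and March1 (2.42, 0.352).

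Hmox1, the gene of heme oxygenase 1, which degrades heme and releases its iron, rose as the only member of the 19 iron handling genes to pass. It stood at 244 CPM in the control, 1799 CPM with hairpin 1 and 871 CPM with hairpin 2, above 108 CPM in Bloodlinc_shCTL and 540.3 CPM in Empty_vector (log2 fold change 2.45 with an SE of 0.67, adjusted p = 0.0389). Zfp36, an immediate early gene whose product speeds the decay of cytokine mRNAs, went from 15.5 to 106 CPM with hairpin 1 and 45.9 CPM with hairpin 2 (log2 fold change 2.29 with an SE of 0.64, adjusted p = 0.0459). Thbs1, the thrombospondin 1 gene, named after its value was seen, stood at 104 CPM in the control, 812 CPM with hairpin 1 and 373 CPM with hairpin 2 (log2 fold change 2.51 with an SE of 0.64, adjusted p = 0.0172). In 2 genes the rise lay in hairpin 2 instead. Hbb-y, an embryonic globin gene, had 102, 3 and 85 counts, or 3.92 CPM in the control, 2.39 CPM with hairpin 1 and 59.96 CPM with hairpin 2 (log2 fold change 2.76 with an SE of 0.75, adjusted p = 0.0355), and turned to −0.60 with hairpin 2 left out. Ficd, which encodes an enzyme that modifies the chaperone BiP and was also named after its value was seen, stood at 7.30 CPM in the control, 11.95 CPM with hairpin 1 and 114 CPM with hairpin 2 (log2 fold change 2.88 with an SE of 0.77, adjusted p = 0.0323).

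Genes of neutrophil granules rose as well, in part. Neutrophil precursors make primary granules first and secondary granules later, and these granules hold different proteins. Of 13 granulocyte markers tested, 3 rose and 0 fell (median 1.80), against 0.58% and 0.3% of all genes tested. The 3 encode secondary granule proteins. Ngp stood at 231 CPM in the control, 2160.3 CPM with hairpin 1 and 880.3 CPM with hairpin 2 (log2 fold change 2.73 with an SE of 0.68, adjusted p = 0.0151), Ltf, the lactoferrin gene, at 183 CPM in the control, 1748 CPM with hairpin 1 and 600.3 CPM with hairpin 2 (log2 fold change 2.71 with an SE of 0.67, adjusted p = 0.0136), and Lcn2, the lipocalin 2 gene, at 109 CPM in the control, 762 CPM with hairpin 1 and 310.4 CPM with hairpin 2 (log2 fold change 2.31 with an SE of 0.62, adjusted p = 0.0347). Both hairpin libraries lay above the 3 controls for all 3 genes.

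The other members, named here after their values were seen, spanned a wide range. Camp, the gene of the secondary granule peptide cathelicidin, had a log2 fold change of 2.07 (adjusted p = 0.0638), and the calprotectin genes S100a8 and S100a9 had 2.14 and 2.28 (adjusted p = 0.117 and 0.0932). The primary granule genes did not pass. Mpo, the myeloperoxidase gene, stood at 571 CPM in the control, 586 CPM with hairpin 1 and 1022 CPM with hairpin 2 (log2 fold change 0.37, adjusted p = 0.883). Elane, Prtn3 and Ctsg, which encode granule proteases, had 0.12, 0.25 and 0.23 (adjusted p = 0.967, 0.92 and 0.93). The difference between the 2 kinds of granule genes was not tested. Also named after their values were seen, Stfa3 (a stefin gene of a family with near-identical copies), Olfm4 and Itgam passed with log2 fold changes of 2.75, 2.20 and 2.13. Itgam, which encodes the CD11b chain of myeloid cells, stood at 53.4 CPM in the control, 288 CPM with hairpin 1 and 188 CPM with hairpin 2, against 24.3 CPM in Bloodlinc_shCTL and 43.2 CPM in Empty_vector. Without hairpin 1, or without either Bloodlinc hairpin library, 0 of the 13 granulocyte markers passed.

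Control libraries differed widely in these markers. The summed level of the 14 granulocyte genes was 122 CPM in Bloodlinc_shCTL, 2125 CPM in Empty_vector and 2569.8 CPM in hnRNPU_shCTL. Against Bloodlinc_shCTL all 13 granulocyte markers tested were called higher, as were 1307 of the 15355 genes tested. Against Empty_vector 7 of the 13 were called higher, as were 371 of all genes tested. With DESeq2, 4 rose against the hnRNPU control. In edgeR's test against the hnRNPU control, 0 of 11 macrophage markers tested passed, with a median of 1.30. Lyz2, the lysozyme gene that granulocytes share, stood at 316 CPM in the control, 1985 CPM with hairpin 1 and 794 CPM with hairpin 2 (log2 fold change 2.15 with an SE of 0.65, adjusted p = 0.0932). Of 12 megakaryocyte markers 0 passed (median 1.34), among them Itgb3 (53.4 CPM in the control, 176 CPM with hairpin 1 and 102 CPM with hairpin 2, adjusted p = 0.368). The part of these cell types in the rise of other genes was not tested.

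**Figure D3:**
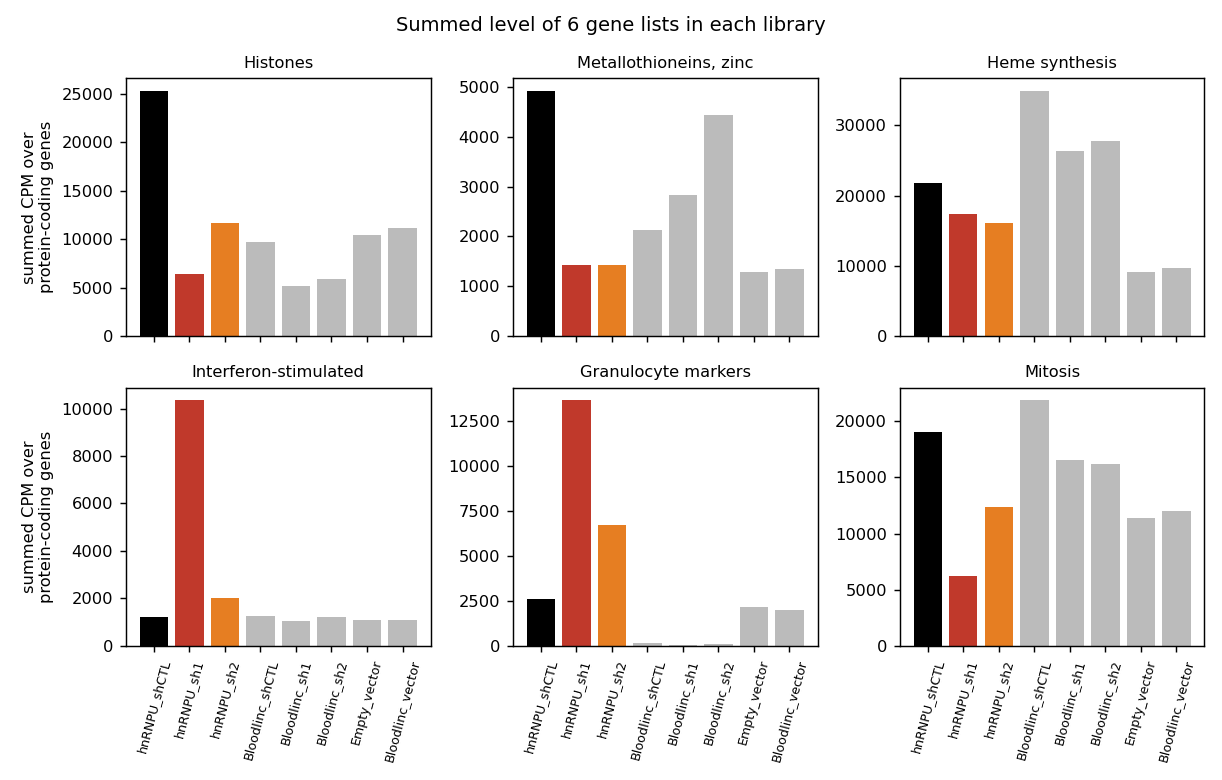
Summed level of 6 gene lists in each of the 8 libraries, in CPM over protein-coding genes; each bar is 1 library, with the hnRNPU control in black, hairpins 1 and 2 in red and orange and all other libraries in grey. The hnRNPU control has the highest bar for histones and for metallothioneins, and the hairpin libraries have the 2 highest bars for the interferon-stimulated and granulocyte lists.

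Several of the genes that fell are known from red cells. Pklr (chromosome 3 from 89136142 to 89146784, plus strand, GRCm38) encodes the pyruvate kinase of red cells and liver, the last enzyme of glycolysis. It stood at 504 CPM in the control, 41.4 CPM with hairpin 1 and 145 CPM with hairpin 2, while Bloodlinc_shCTL and Empty_vector held 673 and 614 CPM (log2 fold change −2.62 with an SE of 0.57, adjusted p = 0.00227). Both hairpin libraries thus lay well below 3 controls that were close to each other. Pklr was the only one of 19 glycolysis genes to pass (list median −0.19), and it passed in 14 of 18 alternative settings.

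Aqp3, a water and glycerol channel gene, stood at 39.02 CPM in the control, 2.39 CPM with hairpin 1 and 9.88 CPM with hairpin 2 (log2 fold change −2.79 with an SE of 0.60, adjusted p = 0.00177), against 48.4 and 38.8 CPM in the other controls. Slc29a1, the gene of the nucleoside transporter ENT1, stood at 199 CPM in the control, 21.5 CPM with hairpin 1 and 93.1 CPM with hairpin 2, against 189 and 199 CPM (log2 fold change −1.98 with an SE of 0.54, adjusted p = 0.0409). Smim1, the gene of the Vel blood group antigen, stood at 221 CPM in the control, 41.4 CPM with hairpin 1 and 56.4 CPM with hairpin 2 (log2 fold change −2.28 with an SE of 0.54, adjusted p = 0.00871). In these 3 genes both hairpin libraries lay below all 6 other libraries. Icam4, the gene of the Landsteiner-Wiener antigen, stood at 90.3 CPM in the control, 17.5 CPM with hairpin 1 and 33.2 CPM with hairpin 2 (log2 fold change −1.95 with an SE of 0.55, adjusted p = 0.0462), but Empty_vector held 33.00 CPM, level with hairpin 2, and the log2 fold change against it was −0.07. Aqp1, the main water channel gene of red cells, stood at 117 CPM in the control, 6.37 CPM with hairpin 1 and 59.96 CPM with hairpin 2 (log2 fold change −2.02 with an SE of 0.55, adjusted p = 0.0389), but Empty_vector held 16.2 CPM and the sign turned to 1.27 against it. The list of red cell membrane and skeleton genes had 33 members tested, of which 3 fell (Slc29a1, Icam4 and Aqp1) and 0 rose, with a median of −0.66. Slc29a1 passed in 4, Icam4 in 3 and Aqp1 in 3 of 18 alternative settings, and 0 of the 33 fell with DESeq2, with limma-voom or with any 1 hairpin library left out. Aqp3 and Smim1, outside that list, passed in 13 and 11 settings.

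The lowest log2 fold changes among protein-coding genes that fell included genes of other functions. Lrig1, a negative regulator of growth factor receptors, had 1 count in each hairpin library, or 10.5 CPM in the control, 0.797 CPM with hairpin 1 and 0.705 CPM with hairpin 2 (log2 fold change −3.89 with an SE of 1.03, adjusted p = 0.0296). Both libraries together gave a ratio of 0.0716 to the control, with a 95% exact binomial counting interval of 0.00862 to 0.261. Adra2b, an adrenergic receptor gene, had 3 counts in each (log2 fold change −3.02 with an SE of 0.78, adjusted p = 0.0211), a ratio of 0.131 (0.0478 to 0.287). Arrdc2, an arrestin family gene, stood at 54.7 CPM in the control, 4.78 CPM with hairpin 1 and 9.88 CPM with hairpin 2 (log2 fold change −3.01 with an SE of 0.61, adjusted p = 0.000614), and Med18, a subunit of the Mediator complex, at 37.7 CPM in the control, 5.58 CPM with hairpin 1 and 9.88 CPM with hairpin 2 (log2 fold change −2.39 with an SE of 0.62, adjusted p = 0.0225). For these 4 genes the hairpin libraries lay below all 6 others. Slc2a4, the gene of the glucose transporter GLUT4, fell against its own control (log2 fold change −2.53 with an SE of 0.62, adjusted p = 0.0112), yet Empty_vector held 3.21 CPM and the sign turned to 1.43 against it.

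The metallothionein genes Mt1 and Mt2, which bind zinc and copper, fell against a control library that held them far above the other 2 controls. Mt2 stood at 2129.5 CPM in the control, 449 CPM with hairpin 1 and 447 CPM with hairpin 2 (log2 fold change −2.32 with an SE of 0.58, adjusted p = 0.0145). Bloodlinc_shCTL and Empty_vector held 440.1 and 289 CPM, close to or below the hairpin libraries. Mt1 stood at 2068 CPM in the control, 536 CPM with hairpin 1 and 413 CPM with hairpin 2 (log2 fold change −2.17 with an SE of 0.60, adjusted p = 0.0409), with 882 and 330.3 CPM in the other controls. Against Empty_vector both genes turned sign, to 0.9972 and 0.91. The other 6 genes of the metallothionein and zinc list did not pass.

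Some histone genes fell from a similarly high control. Replication-dependent histone genes are transcribed in S phase without introns, and their mRNAs end in a stem-loop in place of a poly(A) tail. Of 50 tested, 14 fell, 46 lay below the control with both hairpins (34.7% of all genes tested did so) and the median was −1.74. Without hairpin 1, with limma-voom, with thinned libraries or with a filter of 5 CPM in 2 libraries 0 fell, and 4 fell without hairpin 2. Without Bloodlinc_sh1 or Bloodlinc_sh2, 7 and 9 fell. Their summed level was 25348 CPM in the control and 6406 and 11666 CPM with the hairpins, but also 9745 CPM in Bloodlinc_shCTL and 10430.0 CPM in Empty_vector. The 2 hairpin libraries thus bracketed both other controls. With DESeq2 9 fell, and with robust dispersion 12. Against Bloodlinc_shCTL the median was −0.73, and 2 members were called higher and 15 lower. Of the 15355 genes tested, 1307 and 1033 were so called against that library. Against Empty_vector the median was −0.09, where 1 member rose and 0 fell.

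Members of the histone list did not all share that pattern. Hist1h2ad stood at 187 CPM in the control, 21.5 CPM with hairpin 1 and 31.7 CPM with hairpin 2 (log2 fold change −2.92 with an SE of 0.54, adjusted p = 9.23e-05), and Bloodlinc_shCTL and Empty_vector held 268 and 42.1 CPM, both above the hairpin libraries. The same held for Hist3h2ba (−2.98) and Hist1h2ae (−2.58). Hist1h4j (−2.69) stood at 379 CPM in the control, 33.5 CPM with hairpin 1 and 98.05 CPM with hairpin 2, with 107 and 96.4 CPM in the other controls, and so hairpin 2 lay between them. Hist1h3a fell as well (−2.45). Of the 50 genes, 7 stood below all 6 other libraries with both hairpins, which is near the 13.9% of all genes tested. Histone genes hold near-identical copies, and reads that fit several copies were left out of the gene counts, so values of single members are uncertain. H2afx, which encodes the variant H2A.X that marks DNA breaks, was the only one of 17 chromatin assembly genes to pass (1301 CPM in the control, 183 CPM with hairpin 1 and 414 CPM with hairpin 2, adjusted p = 0.0156). Slbp, whose product binds the histone stem-loop, stood at 477 CPM in the control, 129 CPM with hairpin 1 and 221 CPM with hairpin 2 and did not pass (adjusted p = 0.233).

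Genes of DNA replication and mitosis lay lower with both hairpins without a call. Of 46 replication genes 44 lay below the control in both hairpin libraries, against 34.7% of all genes tested, with a median of −1.29 and 0 passing. Rpa2 (−1.77, adjusted p = 0.0862), Orc1 (−1.72, 0.115) and Mcm5 (−1.63, 0.191) had the largest changes. Of 40 mitosis genes 38 lay below the control in both, with a median of −1.20. Cdc20, which activates the anaphase-promoting complex, stood at 211 CPM in the control, 38.3 CPM with hairpin 1 and 95.9 CPM with hairpin 2 (adjusted p = 0.0638), and the cyclin genes Ccna2 and Ccnb1 had log2 fold changes of −1.68 and −1.67 (adjusted p = 0.201 and 0.171). The summed mitosis level was 19013 CPM in the control, 6212 and 12384 CPM with the hairpins, 21882 CPM in Bloodlinc_shCTL and 11367 CPM in Empty_vector. Hairpin 2 therefore lay above Empty_vector, and the median of the mitosis genes against that library was −0.26. Against Bloodlinc_shCTL it was −1.77. For the replication genes the medians were −0.65 against Empty_vector and −1.57 against Bloodlinc_shCTL. Both hairpin libraries lay below all 6 others for 20 of the 40 mitosis genes and 18 of the 46 replication genes, against 13.9% of all genes tested. Targets of p53, the stress factor that halts division, had a median of 0.71 with 0 of 22 passing, among them Trp53inp1 (1.66, adjusted p = 0.307) and Bbc3 (1.31, 0.399).

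**Figure D4:**
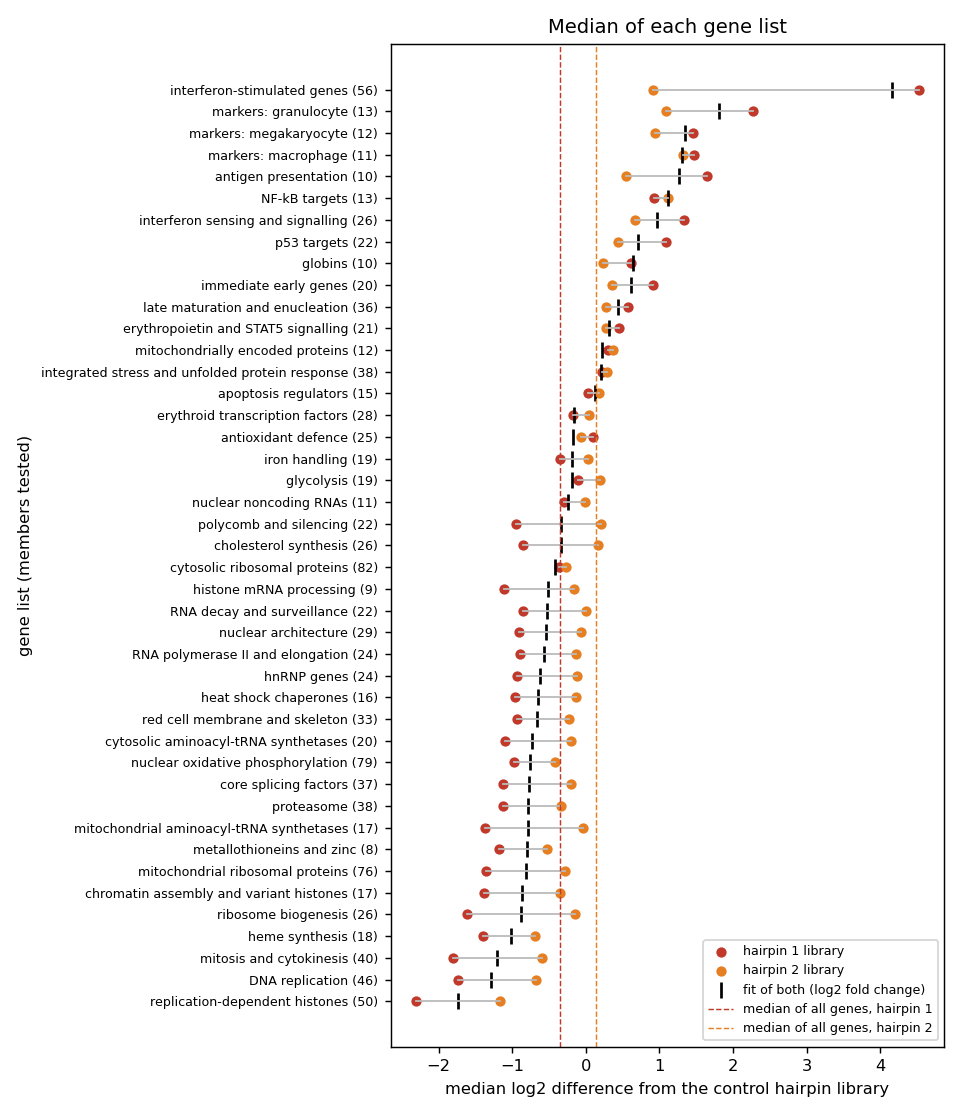
Median log2 difference from the control library for the members of each gene list that were tested, with hairpin 1 in red, hairpin 2 in orange and the log2 fold change of the fit to both as a black tick; dashed lines mark the medians of all genes tested, −0.34 and 0.14. Interferon-stimulated genes stand farthest right in hairpin 1 and replication-dependent histones farthest left in both hairpins.

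The erythroid programme itself showed no common direction. Heme synthesis genes had a median of −1.02 with 0 of 18 passing. Cpox, an enzyme of the later steps of the pathway, stood at 3412 CPM in the control, 892 CPM with hairpin 1 and 828 CPM with hairpin 2 (adjusted p = 0.095). Alad and Slc25a38, an early enzyme gene and the gene of a mitochondrial glycine carrier, had log2 fold changes of −1.63 and −1.63 (adjusted p = 0.208 and 0.142) and turned to 0.64 and 0.13 against Empty_vector. The list median was −1.78 against Bloodlinc_shCTL and 0.61 against Empty_vector. Klf1, the master transcription factor gene of red cells, stood at 654 CPM in the control, 184 CPM with hairpin 1 and 295 CPM with hairpin 2 (adjusted p = 0.222), and Epor, the erythropoietin receptor gene, at 160.4 CPM in the control, 26.3 CPM with hairpin 1 and 79.7 CPM with hairpin 2 (adjusted p = 0.0913). Socs3, a feedback inhibitor gene of that receptor, had a log2 fold change of −1.83 (adjusted p = 0.0809) that turned to 0.66 against Empty_vector. Globins had a positive median (0.64), and their summed level was 71220.0 CPM in the control and 120360.0 and 81440.0 CPM with hairpins 1 and 2. The alpha globin genes Hba-a1 and Hba-a2 are near-identical copies and were not read singly. Late maturation genes had a median of 0.43 with 0 of 36 passing.

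Machinery that all cells use mostly lay below the control. The median was −0.76 for 79 nuclear genes of oxidative phosphorylation, of which 71 lay below the control in both hairpin libraries, against 34.7% of all genes tested, and 39 below all 6 other libraries, against 13.9%. Ndufc1, a subunit of complex I, had the largest change (38.4 CPM in the control, 3.19 CPM with hairpin 1 and 18.3 CPM with hairpin 2, adjusted p = 0.0937). The 12 proteins encoded by mitochondrial DNA, which work in the same complexes, had a median of 0.22. Of these, 8 lay above the control in both hairpin libraries and 1 below, against 30.8% and 34.7% of all genes tested. Their median was 1.63 against Bloodlinc_shCTL and −0.31 against Empty_vector. Mitochondrial ribosomal proteins had a median of −0.81 (Mrps14 −1.85, adjusted p = 0.102), cytosolic ribosomal proteins −0.41, proteasome subunits −0.78 and ribosome biogenesis factors −0.88 (Nop58 −1.17, adjusted p = 0.457). None of the members of these 6 lists passed. With hairpins 1 and 2 the medians were −1.62 and −0.14 for ribosome biogenesis, −1.36 and −0.28 for mitochondrial ribosomal proteins and −1.13 and −0.33 for the proteasome. For cytosolic ribosomal proteins they were −0.37 and −0.27, and for all genes tested −0.34 and 0.14. The ribosome biogenesis median was 0.002 against Bloodlinc_shCTL and −1.70 against Empty_vector. Stress response genes of the integrated stress pathway had a median of 0.21, with Atf5 at 1.84 and Trib3 at 1.76 (adjusted p = 0.181 and 0.178).

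Genes of hnRNP U's own processes were not called. Among 24 hnRNP genes 0 passed and 17 lay below the control in both hairpin libraries, against 34.7% of all genes tested (median −0.62). Ptbp1, the gene of a splicing repressor, stood at 456 CPM in the control, 129 CPM with hairpin 1 and 312 CPM with hairpin 2 (adjusted p = 0.441), and Raly and Hnrnpab had log2 fold changes of −1.02 and −1.01 (adjusted p = 0.554 and 0.579). Of 37 core splicing factors 0 passed (median −0.77), with Prpf4 at −1.34, Eftud2 at −1.28 and Srsf10 at −0.96 (adjusted p = 0.332, 0.366 and 0.576). Nuclear architecture genes had a median of −0.54 with 0 of 29 passing, and Lbr, the lamin B receptor gene, stood at 984 CPM in the control, 287 CPM with hairpin 1 and 587 CPM with hairpin 2 (adjusted p = 0.424).

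The long nuclear RNAs that hnRNP U is known to accompany gave values in different directions and did not pass. The list of nuclear noncoding RNAs had 11 members tested, of which 3 had positive and 8 negative log2 fold changes (median −0.24). Both hairpin libraries lay above the control for 3 of them and below it for 6, against 30.8% and 34.7% of all genes tested. Malat1, an RNA of nuclear speckles, stood at 14389 CPM in the control, 47833 CPM with hairpin 1 and 29851 CPM with hairpin 2 (log2 fold change 1.41 with an SE of 0.81, adjusted p = 0.6). Neat1, the scaffold RNA of paraspeckles, stood at 921 CPM in the control, 3759 CPM with hairpin 1 and 1685 CPM with hairpin 2 (log2 fold change 1.57 with an SE of 0.67, adjusted p = 0.384). For both, the hairpin libraries lay above the control and above the other 2 controls. Xist, the RNA that coats the inactive X chromosome, stood at 417 CPM in the control, 334 CPM with hairpin 1 and 543 CPM with hairpin 2, and so the hairpin libraries lay on either side of the control. Protein-coding genes on the X chromosome had a median log2 fold change of 0.03 (429 genes, 2 rose and 0 fell), and autosomal genes had a median of −0.09 (12389 genes, 74 rose and 36 fell).

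Long genes stood relatively higher than short ones in both hairpin libraries. Protein-coding genes were split into 5 groups of 2567 by their length on the genome. The median log2 fold change went from −0.34 in the shortest group over −0.23, −0.12 and −0.03 to 0.24 in the longest. Of the 36 protein-coding genes that fell, 27 were in the shortest group and 2 in the longest, while the genes that rose were spread as 20, 18, 16, 11 and 11. Split by exon length instead, the median went from −0.32 in the shortest group to 0.13 in the longest, with 23 and 0 genes that fell. Median exon length also rose from 2324 to 8264 bases over the groups by genomic length, so the 2 lengths were not told apart. The 46 histone genes with 1 exon, which include 14 of these 36, had a median of −1.76, and the other 233 genes with 1 exon had −0.32. Split by their control level, genes went from 0.54 in the lowest group to −0.45 in the highest. The same control library set these groups and was subtracted in the differences. A fall can come from that alone and is not read as an effect of abundance. Processed pseudogenes (538 genes) had a median of −0.58 and small nucleolar RNAs (167 genes) −0.71, with 1 and 0 genes that fell. The part of library composition in this gradient was not tested.

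**Figure D5:**
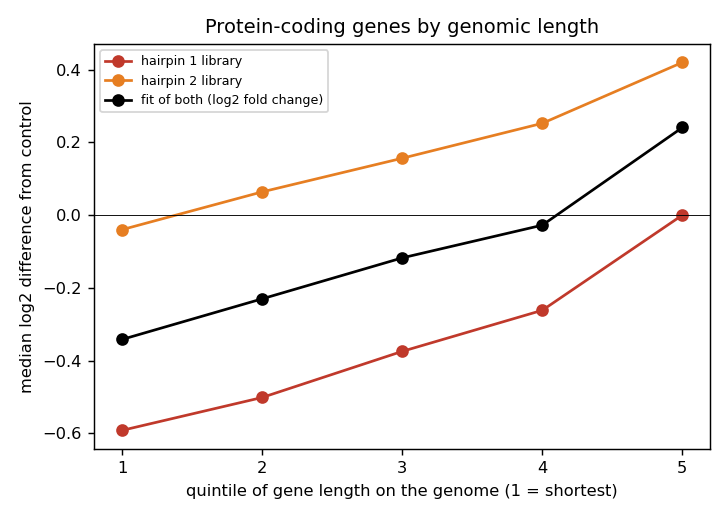
Median log2 difference from the control for protein-coding genes in 5 groups of equal size by genomic length, from the shortest (1) to the longest (5), for hairpin 1, hairpin 2 and the fit to both. All 3 lines go up with length, and the fit runs from −0.34 to 0.24.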

How the data were processed

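Ribosomal RNA was depleted from total RNA and libraries marked for strand by dUTP were sequenced, per the labels' protocols. Alignment to mm9 used TopHat2 2.0.11 and counting per gene used HTSeq, per the submitters' processing notes. HTSeq's version, gene models and strand setting are not given in the sources used here, so a gene and its antisense partner cannot be told apart. The authors deposited raw counts for 37620 gene IDs per library, and 5 summary entries were kept out of tests. GENCODE M21 (GRCm38) gave symbols for 87.4% of the IDs.

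All 8 libraries in 6 groups were fitted in edgeR 4.0.16 (R 4.3.3) with TMM scaling, filterByExpr and quasi-likelihood F-tests, adjusted by Benjamini-Hochberg over 15355 genes with a threshold of 0.05. The fit had 2 residual degrees of freedom, and single control libraries were assumed to vary like the hairpins. The SE is the log2 fold change divided by the square root of F. The prior degrees of freedom came to 396.7, which pulls the spread of single genes onto the common trend and lets genes pass whose hairpins disagree. Levels are CPM over 20195 protein-coding IDs, and differences of single libraries used a prior count of 2. Data were also simulated from the fit's own trend of the spread, with the same change in both hairpins (14737 genes). The changed genes were drawn only from those with a mean of at least 1 TMM CPM, so recovery of lower genes was not measured. In these simulated data the fit recovered 2%, 22%, 62% and 86% of genes changed 2-, 4-, 8- and 16-fold, with 2 false calls. Those data hold no further disagreement between hairpins, unlike the real libraries, so the number of false calls does not carry over to the real calls.

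The 53 gene lists and the comparison were chosen with earlier results of these data known, and lists are described by counts and medians only. The text named Hnrnpu, the 12 genes at either end of the log2 fold changes that passed (both hairpins on 1 side, mean of at least 5 CPM), the 12 highest and 12 lowest by the smaller hairpin difference (at least 20 counts in each hairpin library, or 10 CPM in the control), and up to 4 passing members of a list, or up to 3 of at least 5 CPM where none passed. Predicted genes and small RNAs were counted only, some genes under the rule are not reported here, and exceptions are marked. Alternatives were DESeq2 1.42.0, limma-voom (limma 3.58.1), other scalings, filters, gene sets, controls, robust dispersion, thinning and each hairpin library left out. The comparison with Empty_vector was added after the data were seen.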

Additional observations from a re-analysis of the deposited data

Results flagged for a closer look

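The share of uniquely placed counts outside genes was above that of every control library in both hnRNPU hairpin libraries, at 89.68% with hairpin 1 and 86.64% with hairpin 2, against 21.82% in their own control. In the same libraries, 2 gene IDs absent from the annotation took 32.6% and 22.64% of the counts in genes, against 0.01657% in that control. These entries were not part of the comparison of protein-coding levels.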

How the results depend on the processing

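The 135 genes that passed became 100 with DESeq2 (85 of them among the 135), 164 with the size factors of DESeq2, 163 when scaled by the upper quartile, 123 over protein-coding genes, 147 without unannotated IDs and mitochondrial rRNA, 105 without a low-count filter and 178 in the 3 libraries alone. They became 9 with limma-voom, 8 with a filter of 5 CPM in 2 libraries, 9 with thinned libraries and 65 with robust dispersion, and 2340 against Bloodlinc_shCTL, 1497 against the mean of 3 controls and 560 against Empty_vector. With 1 hairpin library left out they ranged from 7 to 121, lowest without hnRNPU hairpin 1. Of the calls, 65.9% were higher, against 77% (77 and 23) with DESeq2, 76.8% (126 and 38) with its size factors and 79.8% (130 and 33) with upper quartile scaling. With robust dispersion the majority turned (46.2%, 30 and 35). The share was 86.5% (154 and 24) in the 3 libraries alone, 55.9% (1307 and 1033) against Bloodlinc_shCTL, 76.2% (1141 and 356) against the mean of 3 controls and 76.9% without either Bloodlinc hairpin library. Without hnRNPU hairpin 2 it was 88.1% (52 and 7), and all calls were higher with limma-voom, the 5 CPM filter, thinned libraries and without hnRNPU hairpin 1. The median of all genes was −0.09, and 0.10 with DESeq2, 0.03 with size factors and 0.07 with upper quartile scaling. The median difference over genes tested was −0.34 with hairpin 1 and 0.14 with hairpin 2, and was −1.004 and −0.30 in CPM over all genes and −0.12 with hairpin 2 in TMM CPM.

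Signs turned against Bloodlinc_shCTL for Hnrnpu (0.27) and Hnrnpul2 (0.044), and against Empty_vector for Hnrnpul1 (0.15), Slc2a4 (1.43), Mt2 (0.997), Mt1 (0.91), Aqp1 (1.27), Alad (0.64), Slc25a38 (0.13) and Socs3 (0.66). Over fits without 1 hairpin library, Usp18 ranged from −0.0067 (without hnRNPU hairpin 1) to 7.21, Mx1 from −5.937 (without hnRNPU hairpin 1) to 6.899, Elane from −0.026 (without hnRNPU hairpin 2) to 0.233 and Hbb-y from −0.597 (without hnRNPU hairpin 2) to 3.64. The cause was not tested. No paired analysis was possible because the control library has no second replicate. The depth of the hairpin libraries limits genes below about 2 CPM.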
